A study of Mus musculus with 6 samples.

Results

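The MHC class I presentation and immunoproteasome genes were followed as a set of 10 genes in mouse lung: B2m, Tap1, Tap2, Tapbp, Psmb8, Psmb9, Psmb10, Nlrc5, H2-K1 and H2-D1. They were chosen by name and role, and every probe set annotated to exactly 1 of them was taken, which gave 27 probe sets. All 10 were measured, out of 18193 genes with a probe set of their own. For each gene the probe set of highest mean log2 value over the arrays is called its brightest and leads the account, and probe sets shared by several H2 genes are given apart.

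RNA came from whole lungs of male mice on a C57BL/6 background that carried both a CC10-rtTA and a tet-O-EGFR transgene, the latter a mutant human EGFR with leucine replaced by arginine in its kinase domain. Doxycycline turns on this EGFR in cells that use the CC10 promoter, so every mouse of both groups was a lung cancer (LC) model and no mouse without the tumor gene was on these arrays. LC-HFD mice ate a high-fat diet with 60% of energy from fat and LC-RD mice a regular diet, and both received doxycycline both in food (625 ppm) and in drinking water (2 mg/ml). By the labels, diet ran to 8 weeks and doxycycline followed for 7 weeks, whereas the description of the experiment has mice aged 6 weeks, fed for 2 weeks and then given doxycycline for 8 weeks. The methods state an age of 6 to 8 weeks. Each group had 3 mice, with 1 Affymetrix mouse genome array per lung, so n = 3 per group throughout. Sftpc, the surfactant protein of alveolar type II cells, had a mean log2 value of 13.81 in both groups. That is also the highest value on every array, so a difference between groups may not show there. Scgb1a1, the club cell protein encoded by CC10, had 13.49 in LC-HFD and 13.60 in LC-RD. The labelled tissue thus had its markers.

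Class I molecules display peptides from inside the cell to CD8 T cells and to receptors of natural killer cells. The proteasome cuts proteins into peptides, and interferon can replace its constitutive catalytic subunits PSMB6, PSMB7 and PSMB5 by the immunoproteasome subunits PSMB9, PSMB10 and PSMB8. TAP1 and TAP2 pump the peptides into the endoplasmic reticulum, where tapasin (Tapbp) holds the transporter next to empty class I molecules. Each of these is a heavy chain, such as H2-K or H2-D, bound to beta-2 microglobulin (B2m). NLRC5 is the transactivator of these genes and works with the RFX, CREB/ATF and NF-Y factors at the SXY module of their promoters, while interferon regulatory factors bind a separate element.

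Promoter windows of 8 of the 10 genes were matched by symbol in RefSeq (GRCm38.p6, 250 bases before to 50 bases after the start site), and Nlrc5 and Tap2 were not matched. The windows of B2m, H2-K1 and H2-D1, whose products form the class I molecule, are shown with that of Tap1, which overlaps the window of Psmb9. Capitals mark 3 motifs searched on both strands, AANNGAAA (a core of interferon regulatory factor sites), CCAAT (NF-Y) and TGACG (CREB/ATF), which do not overlap one another in the windows shown. The coordinates are chr2:122147437-122147736 on the plus strand for B2m, chr17:34000298-34000597 on the minus strand for H2-K1, chr17:35262844-35263143 on the plus strand for H2-D1 and chr17:34187306-34187605 on the plus strand for Tap1.
B2m: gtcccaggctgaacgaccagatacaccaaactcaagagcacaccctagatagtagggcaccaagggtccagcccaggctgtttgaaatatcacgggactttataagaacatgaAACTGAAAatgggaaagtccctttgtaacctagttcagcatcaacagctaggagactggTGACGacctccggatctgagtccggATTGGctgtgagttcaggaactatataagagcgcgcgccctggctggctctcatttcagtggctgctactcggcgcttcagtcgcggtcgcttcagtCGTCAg
H2-K1: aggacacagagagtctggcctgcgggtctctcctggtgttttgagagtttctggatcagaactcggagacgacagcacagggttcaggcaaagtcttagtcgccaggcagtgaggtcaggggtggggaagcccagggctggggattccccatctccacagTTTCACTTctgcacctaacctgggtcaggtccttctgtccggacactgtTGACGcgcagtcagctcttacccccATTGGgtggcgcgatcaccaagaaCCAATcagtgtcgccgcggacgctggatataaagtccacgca
H2-D1: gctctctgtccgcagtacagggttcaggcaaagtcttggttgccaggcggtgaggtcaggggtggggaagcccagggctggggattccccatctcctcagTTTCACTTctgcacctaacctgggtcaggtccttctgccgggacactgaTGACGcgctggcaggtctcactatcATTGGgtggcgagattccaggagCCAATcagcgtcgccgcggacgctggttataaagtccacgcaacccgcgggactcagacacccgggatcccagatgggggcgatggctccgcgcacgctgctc
Tap1: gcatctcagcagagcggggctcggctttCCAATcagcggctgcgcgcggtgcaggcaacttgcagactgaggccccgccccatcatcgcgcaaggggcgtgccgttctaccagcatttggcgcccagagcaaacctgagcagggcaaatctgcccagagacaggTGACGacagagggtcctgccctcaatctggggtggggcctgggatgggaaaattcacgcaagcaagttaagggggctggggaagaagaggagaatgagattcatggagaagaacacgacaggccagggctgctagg
All 3 motifs were found in the windows of 3 members, B2m, H2-K1 and H2-D1, against 1.6% of 32851 windows of the same length. CCAAT was found in 6 of the 8 members and in 37.4% of all windows, TGACG in 5 and in 20.8%, and AANNGAAA in 3 and in 23.9%. The windows of H2-K1 and H2-D1 shared a run of 47 bases, and those of Tap1 and Psmb9 shared 275 bases on opposite strands. The CCAAT and TGACG matches of Tap1 and Psmb9 are the same sites read from opposite strands, so each is counted for both genes. These matches describe letters in a window and not bound sites.

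The tables hold log2 values after GCRMA, a normalization that models background from the base content of each probe. Array medians lay between 4.79 and 4.84, and over all probe sets the spread between LC-HFD mice (median SD 0.137) exceeded that between LC-RD mice (0.0944). Most kinds of control probe set separated the groups. Added hybridization controls averaged 11.5 in LC-HFD and 10.02 in LC-RD, the 18S ribosomal RNA probe sets 7.608 and 12.53, and the excess of 3' over 5' signal in control genes was 1.584 to 1.696 against 1.703 to 1.761 without overlap, each at an exact two-sided permutation p of 0.1, the smallest that 3 against 3 arrays allow. Diet and the handling of RNA and arrays therefore cannot be told apart, and this holds for every difference below. In whole lung, fewer cells of a type and less RNA per cell cannot be told apart either.

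All 27 member probe sets had a higher mean in LC-HFD than in LC-RD, by 0.05 to 0.68 on the log2 scale, and none differed by as much as 2-fold. Over the whole array, 25176 of 45037 probe sets and 9578 of 18193 genes had a positive difference. Of the 27 probe sets, 7 had a mean level under 4, called near background, and 0 of these passed. On the brightest probe sets, 6 of the 10 genes rose (Nlrc5, H2-K1, Tap1, Tapbp, Psmb8 and Psmb10) at an adjusted p under 0.05 (limma, Benjamini-Hochberg over 45037 probe sets), 0 fell, and 4 did not pass (B2m, Tap2, Psmb9 and H2-D1). Over all genes 11.1% were higher in LC-HFD and 16.2% lower. The median difference was 0.31 over the 10 genes and 0.02 over all genes. All 10 genes had every LC-HFD array above every LC-RD array, which held for 22.3% of all genes. Of the 27 probe sets 12 rose, beside 11.3% of all probe sets that were higher and 13.6% that were lower, and a change that passed and exceeded 2-fold was seen in 1.73% of all probe sets and in 0 members. No member was lower at an unadjusted p under 0.05 or by the methods' t-test. Of all 18193 genes, 3496 were higher and 4172 lower at an unadjusted p under 0.05. By the methods' t-test 1532 of them were higher and 2343 lower at an adjusted p under 0.05. The count of 6 genes fell to 3 without LC-RD replicate 1 (Nlrc5, Tapbp and Psmb10) and to 3 without LC-RD replicate 2 (Nlrc5, Tapbp and Tap1), and to 2 with the excess of 3' over 5' signal as covariate, while all 10 differences stayed positive.

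**Figure D1:**
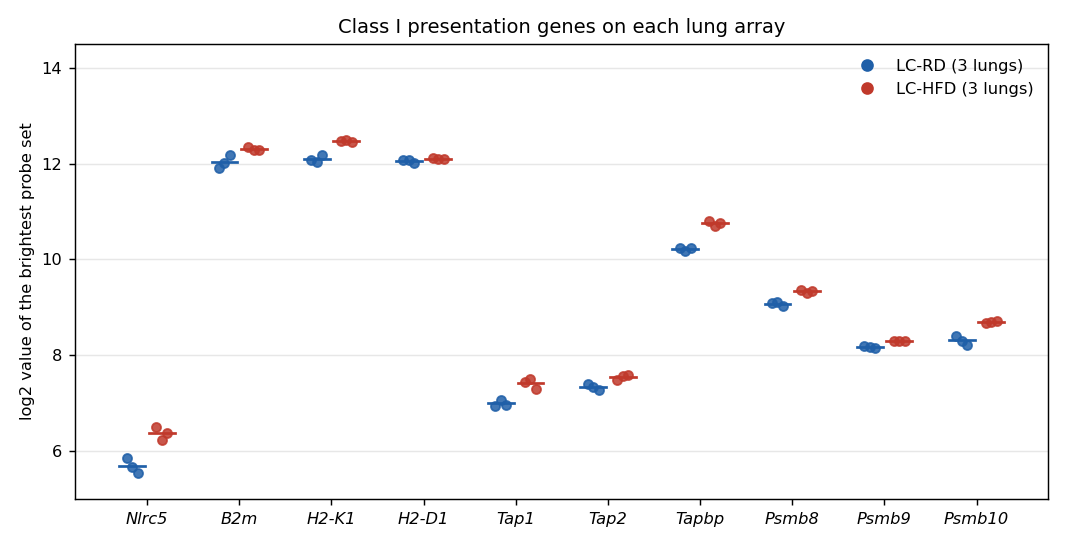
Log2 value of the brightest probe set of each of the 10 genes on each of the 6 arrays, by group; points are single mice and short lines are group means. In all 10 genes the 3 LC-HFD points lie above the 3 LC-RD points, closely for Psmb9 and H2-D1.

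Nlrc5, the transactivator of the class I genes, had the largest difference of the 10. Its log2 values were 6.51, 6.22 and 6.38 in LC-HFD and 5.85, 5.66 and 5.55 in LC-RD. The groups did not overlap, and the lowest LC-HFD array stood 0.36 above the highest LC-RD array. The difference was 0.68 ± 0.113 (SE), a 1.60-fold rise (95% interval 0.42 to 0.94, limma adjusted p = 0.00612). It was larger than the differences of 98.2% of all genes. It ranged from 0.61 to 0.76 over the alternatives and passed at an adjusted p under 0.05 in each that tested it.

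B2m, the light chain shared by all class I molecules, was read by 2 probe sets. The brightest, 1449289_a_at, gave 12.34, 12.28 and 12.28 in LC-HFD and 11.91, 12.01 and 12.19 in LC-RD. The third LC-RD mouse came within 0.09 of the lowest LC-HFD mouse. The difference of 0.26 ± 0.0902 (SE) did not pass (limma adjusted p = 0.0735), and without that mouse it was 0.34 with an adjusted p of 0.0413. The same probe set passed with trend and robust variances (limma adjusted p = 0.00161) and with array weights (limma adjusted p = 0.0447). With minimum mean levels of 4 and 6 it also passed (limma adjusted p = 0.0392 and 0.0168), and in no other alternative. On the other probe set, 1452428_a_at, the values were 12.12, 12.11 and 12.13 in LC-HFD and 11.64, 11.74 and 11.76 in LC-RD. There B2m rose by 0.41 ± 0.0711 (SE), or 1.33-fold (limma adjusted p = 0.00735).

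H2-K1 encodes the heavy chain H2-K. Its brightest probe set, 1425336_x_at, gave 12.47, 12.49 and 12.45 in LC-HFD and 12.08, 12.04 and 12.19 in LC-RD, with no overlap. It rose by 0.36 ± 0.0741 (SE), or 1.29-fold (limma adjusted p = 0.0132), with adjusted p of 0.0631 and 0.0626 without LC-RD replicates 1 and 2. A further probe set, 1427746_x_at, also rose, from 10.11, 10.12 and 10.26 in LC-RD to 10.78, 11.00 and 10.67 in LC-HFD, a difference of 0.65 (limma adjusted p = 0.00539). Of its other probe sets 2 did not pass, with differences of 0.12 (limma adjusted p = 0.283) and 0.45 (limma adjusted p = 0.126), and on the latter the LC-RD array at 6.76 lay inside the LC-HFD range of 6.59 to 7.07.

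H2-D1 encodes the heavy chain H2-D and was read by 9 probe sets, of which 3 rose and 6 did not pass. Of the latter, 3 had mean levels of 3.87, 3.24 and 3.03, near background. On the brightest, 1451784_x_at, the values were 12.11, 12.09 and 12.10 in LC-HFD and 12.07, 12.07 and 12.02 in LC-RD. The groups stood 0.02 apart at their nearest arrays, and the difference was 0.05 (95% interval -0.11 to 0.21, limma adjusted p = 0.604). The next brightest, 1425545_x_at, differed by 0.08 (limma adjusted p = 0.415). In contrast, 1426324_at gave 8.42, 8.31 and 8.45 in LC-HFD and 8.10, 8.01 and 8.04 in LC-RD, a rise of 0.34 (limma adjusted p = 0.0171). On 1450170_x_at the values were 5.45, 5.51 and 5.68 against 4.94, 5.04 and 4.88, a rise of 0.59 (limma adjusted p = 0.00458). On 1452544_x_at, with a mean level of 4.66, the rise was 0.55 (limma adjusted p = 0.0246). The probe sets of H2-D1 thus differed in their calls. The suffix x marks probe sets with probes that also match other transcripts. It was carried by 11 of the 13 probe sets of H2-K1 and H2-D1, 4 of which rose. Transcripts of H2-K1 and H2-D1 may therefore not be separated.

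Apart from these, 12 probe sets were annotated to several class I H2 genes at once, and 4 of them rose, 0 fell and 8 did not pass. No shared probe set was lower at an unadjusted p under 0.05 or by the methods' t-test. The probe set of H2-K1 and H2-D1 together, 1424948_x_at, gave 10.71, 10.62 and 10.75 in LC-HFD and 10.13, 10.06 and 10.13 in LC-RD. The groups stood 0.49 apart at their nearest arrays, and the difference was 0.59 ± 0.0732 (SE, limma adjusted p = 0.00228). The larger differences were in the Qa region, whose H2-Q genes encode nonclassical class I heavy chains. On 1431008_at, shared by H2-Q6 and H2-Q8, the values were 9.86, 9.87 and 9.94 in LC-HFD and 8.75, 8.73 and 8.79 in LC-RD. This was a difference of 1.13 ± 0.0691 (SE, limma adjusted p = 0.000201), and it was the only one of the 12 that passed and exceeded 2-fold. On 1418536_at, shared by H2-Q9 and H2-Q7, the rise was 0.86 (limma adjusted p = 0.000829), and on 1451644_a_at, shared by H2-Q6, H2-Q8 and H2-Q4, it was 0.71 (limma adjusted p = 0.00535). These 4 passed in every alternative run on them. By contrast, 1449556_at, shared by H2-T23 (the Qa-1 gene) and a pseudogene, gave 10.02, 10.05 and 10.09 against 10.00, 10.00 and 9.82, a difference of 0.11 (limma adjusted p = 0.328).

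**Figure D2:**
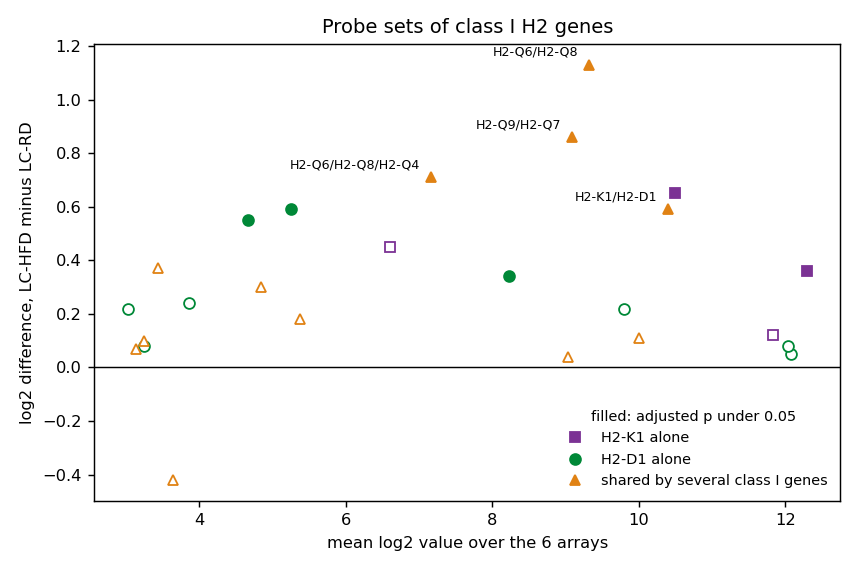
Mean log2 level over the 6 arrays (horizontal axis) against the log2 difference LC-HFD minus LC-RD (vertical axis) for the probe sets of H2-K1, of H2-D1 and of several H2 genes; filled symbols passed at an adjusted p under 0.05. The brightest H2-D1 probe sets lie near 0, and the shared probe set of H2-Q6 and H2-Q8 stands highest at 1.13.

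The peptide transporter and its partner rose in part. Tap1 had log2 values of 7.44, 7.51 and 7.29 in LC-HFD and 6.94, 7.07 and 6.97 in LC-RD on its brightest probe set, with no overlap. It rose by 0.42 ± 0.0865 (SE), or 1.34-fold (limma adjusted p = 0.0136), and by 0.39 without LC-RD replicate 1 (adjusted p = 0.0625). Its 3 other probe sets had mean levels of at most 3.3, near background, and differences of 0.06 to 0.14 that did not pass. Tap2, its partner in the transporter, was read by a single probe set at 7.49, 7.57 and 7.58 in LC-HFD and 7.41, 7.33 and 7.27 in LC-RD. The groups lay 0.08 apart at their nearest arrays, and the difference of 0.21 ± 0.0758 (SE) did not pass (limma adjusted p = 0.0849). Tap2 did pass after quantile normalization (0.27, limma adjusted p = 0.0432) and with trend and robust variances (limma adjusted p = 0.0315). With minimum mean levels of 4 and 6 it also passed (limma adjusted p = 0.0394 and 0.0157), and in no other alternative.

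Tapbp encodes tapasin, which bridges TAP and the class I molecule. Its brightest probe set gave 10.80, 10.70 and 10.77 in LC-HFD and 10.23, 10.17 and 10.25 in LC-RD, and the groups stood 0.45 apart at their nearest arrays. Tapbp rose by 0.54 ± 0.0711 (SE), or 1.45-fold (limma adjusted p = 0.00267). The second probe set, 1450378_at, gave 7.59, 7.59 and 7.75 against 7.27, 7.26 and 7.17, a rise of 0.41 (limma adjusted p = 0.0105). With Nlrc5, Tapbp was the gene that passed at an adjusted p under 0.05 in each alternative that tested it, with differences of 0.48 to 0.58.

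**Figure D3:**
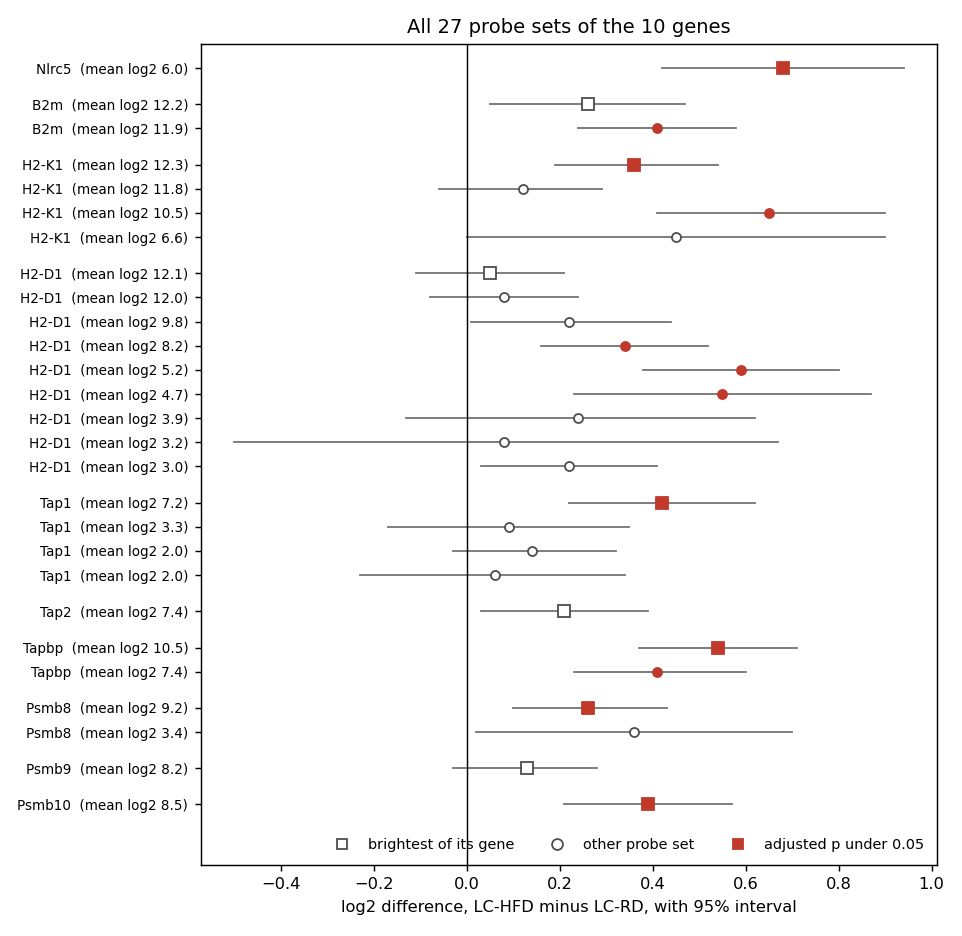
Log2 difference LC-HFD minus LC-RD of all 27 probe sets with its 95% interval, grouped by gene and ordered by mean log2 level within a gene; squares are brightest probe sets, circles the others, and filled red symbols passed at an adjusted p under 0.05. All 27 symbols lie right of 0, and the 12 that passed include 4 x-marked probe sets of H2-K1 and H2-D1.

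Of the immunoproteasome subunits 2 of 3 rose by the limma fit. Psmb8 (LMP7) had log2 values of 9.36, 9.31 and 9.35 in LC-HFD and 9.09, 9.11 and 9.03 in LC-RD, with no overlap. It rose by 0.26 ± 0.0684 (SE), or 1.20-fold (limma adjusted p = 0.0297), and the adjusted p was 0.0541 to 0.101 when any 1 array other than LC-HFD replicate 2 was left out. A second Psmb8 probe set with a mean level of 3.37 differed by 0.36 and did not pass (limma adjusted p = 0.108). Psmb10 (MECL-1) was at 8.68, 8.69 and 8.72 in LC-HFD and 8.41, 8.30 and 8.22 in LC-RD, again without overlap. It rose by 0.39 ± 0.0769 (SE), or 1.31-fold (limma adjusted p = 0.0119), and the difference without LC-RD replicate 2 was 0.38 (adjusted p = 0.0523). Psmb9 (LMP2), whose promoter window overlaps that of Tap1 shown above, was at 8.29, 8.30 and 8.29 in LC-HFD and 8.19, 8.17 and 8.15 in LC-RD. Its groups lay 0.10 apart at their nearest arrays, and the difference of 0.13 (95% interval -0.03 to 0.28) did not pass (limma adjusted p = 0.202). Psmb9 did pass by the methods' t-test (adjusted p = 0.0149), by which 3 of 3 subunits rose, beside 1532 of all 18193 genes. With a minimum mean level of 6 it also passed (limma adjusted p = 0.0492).

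The constitutive subunits that these replace did not move as a group. Psmb5, the counterpart of Psmb8, was at 9.62, 9.61 and 9.62 in LC-HFD and 9.84, 9.92 and 9.78 in LC-RD, a difference of -0.23 that did not pass (limma adjusted p = 0.0522). Psmb6, the counterpart of Psmb9, differed by 0.03 (limma adjusted p = 0.789). Psmb7, the counterpart of Psmb10, rose from 9.68, 9.68 and 9.52 to 10.13, 10.17 and 10.15, a difference of 0.53 (limma adjusted p = 0.00403). Within each array, the log2 value of Psmb8 less that of Psmb5 was -0.26, -0.29 and -0.27 in LC-HFD and -0.76, -0.81 and -0.75 in LC-RD, a change of 0.50. The same quantity changed by 0.10 for Psmb9 less Psmb6 and by -0.14 for Psmb10 less Psmb7. The first of the 3 pairs thus shifted toward the immunoproteasome subunit and the last the other way. Each change had an exact two-sided permutation p of 0.1, the smallest that 3 against 3 arrays allow, before any adjustment over the 3 pairs.

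**Figure D4:**
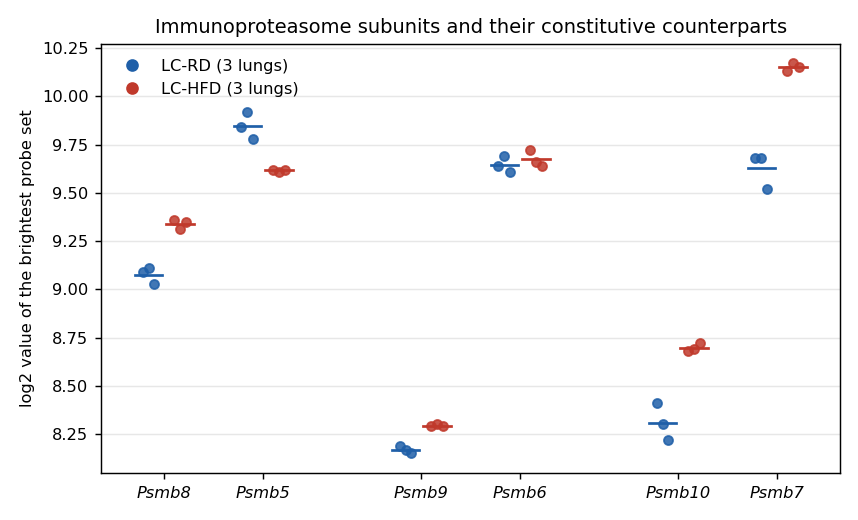
Log2 value of the brightest probe set of each immunoproteasome subunit and of the constitutive subunit it replaces, on each of the 6 arrays. Points are single mice and short lines are group means. LC-HFD lies above LC-RD for Psmb8 and below it for Psmb5, and it lies above for both Psmb10 and Psmb7.

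**Figure D5:**
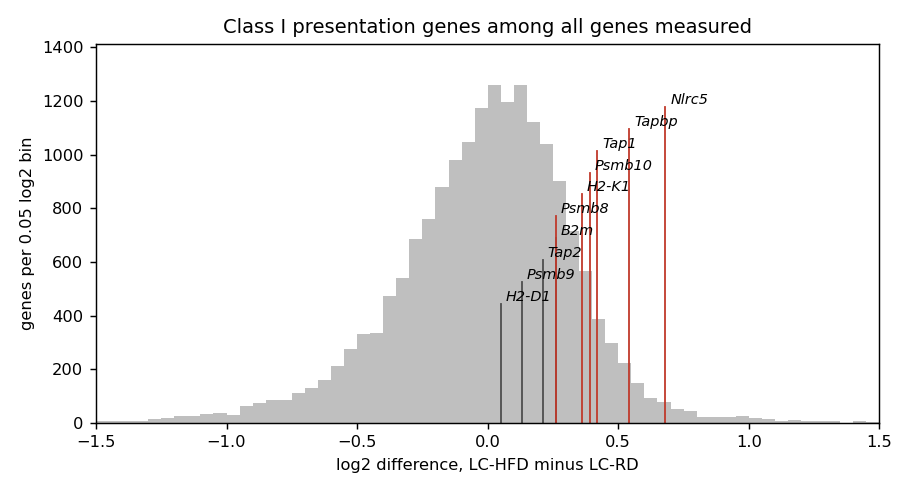
Number of genes by log2 difference LC-HFD minus LC-RD on the brightest probe set, for 18193 genes in bins 0.05 wide, with the 10 members marked; 51 genes beyond 1.5 in either direction lie outside the plot. The members fall between 0.05 (H2-D1) and 0.68 (Nlrc5), right of the median of all genes at 0.02.

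Among the 10 genes, the share of all genes with a smaller difference was 98.2% for Nlrc5, 96.4% for Tapbp, 92.6% for Tap1, 90.8% for Psmb10 and 89.3% for H2-K1. It was 81.3% for Psmb8, 80.9% for B2m, 75.0% for Tap2, 64.6% for Psmb9 and 54.3% for H2-D1. The order describes these arrays, and the 95% intervals of neighbours in it overlapped.

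Other genes of the pathway were counted on their brightest probe sets beside the 11.1% of all genes that were higher and the 16.2% that were lower. Of 6 measured genes for the PA28 activator and proteasome assembly, 1 rose and 1 fell. Psme3, a nuclear activator subunit, was at 7.90, 7.59 and 7.81 in LC-HFD and 5.79, 5.96 and 5.60 in LC-RD, a rise of 1.99 (limma adjusted p = 0.000201), although its 3 probe sets spanned 0.21 to 1.99. Psmg2, an assembly chaperone, fell by 0.49 (limma adjusted p = 0.00548), with another of its probe sets at 0.24. Psme1, an interferon-responsive PA28 subunit, differed by 0.07 (limma adjusted p = 0.499), and the probe set shared by Psme2 and Psme2b by 0.06 (limma adjusted p = 0.616).

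Peptide loading and trimming in the endoplasmic reticulum had 11 measured genes, of which 0 rose, 1 fell and 10 did not pass. No gene of this list was higher at an unadjusted p under 0.05 or by the methods' t-test. Sec61b, a subunit of the translocation channel, fell by 0.29 (limma adjusted p = 0.021), but its call was lost in 4 of the 6 fits that left out an array, without LC-HFD replicate 3 or any LC-RD mouse (adjusted p up to 0.0819). The rises of Tapbp and Tap1 thus stood beside a list median of 0.06.

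Of 17 measured nonclassical and class I-like genes 2 rose and 4 fell. H2-Q2 was at 5.75, 5.01 and 5.60 in LC-HFD and 6.82, 6.98 and 6.70 in LC-RD, and it fell by 1.38 (limma adjusted p = 0.00317). The probe set that H2-Q2 shares with H2-D1 and Gm38417 differed by 0.37 and did not pass (limma adjusted p = 0.0657). Of the other shared probe sets with H2-Q genes, the 3 described above rose, and that of H2-Q5 and H2-K1 differed by 0.18 and did not pass (limma adjusted p = 0.137). H60c, a ligand of the NKG2D receptor, fell by 0.84 (limma adjusted p = 0.00282) with a mean level in both groups under 4, near background. Procr, the endothelial protein C receptor, rose by 0.61 (limma adjusted p = 0.00346). Leaving out single arrays gave 1 to 3 genes higher and 3 to 4 lower, and either scaling gave 1 higher.

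Among 8 measured genes for the SXY enhanceosome and the class II transactivator 3 rose and 2 fell. Ciita, the class II counterpart of Nlrc5, was at 7.04, 6.79 and 7.12 in LC-HFD and 6.35, 6.59 and 6.38 in LC-RD, a rise of 0.54 (limma adjusted p = 0.0144), but its 3 probe sets spanned -0.36 to 0.54. Nfya, an NF-Y subunit, rose by 0.48 (limma adjusted p = 0.00325). Rfx5, the DNA-binding partner of both transactivators, fell by 0.47 (limma adjusted p = 0.00647). These partners of Nlrc5 did not share a direction. The call of Ciita was lost without LC-RD replicate 1 or 3 (adjusted p up to 0.0614), and with either of these mice left out 1 gene of the list was higher.

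Of 9 measured genes from interferon-gamma to class I genes, 0 rose, 1 fell and 8 did not pass, with a median difference of -0.00. Those counts depended on the scaling, since 2 genes were higher and 0 lower after quantile normalization, after median centering and without LC-HFD replicate 2. At an unadjusted p under 0.05, 3 were higher, and 1 was higher by the methods' t-test. Irf1, an interferon-induced regulator of class I genes, was at 8.93, 8.97 and 8.86 in LC-HFD and 8.72, 8.71 and 8.61 in LC-RD, a difference of 0.24 that did not pass (limma adjusted p = 0.0533) but passed after quantile normalization (0.26, adjusted p = 0.0442) and median centering (0.26, adjusted p = 0.0373). Ifng had mean values of 2.302 and 2.303, near background in both groups. Jak2, a kinase of the interferon-gamma receptor, differed by -0.26 (limma adjusted p = 0.0425), a call that was lost after quantile normalization (adjusted p = 0.0843), after median centering (adjusted p = 0.0538) and without any single array except LC-HFD replicate 3 (adjusted p up to 0.141).

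Of 13 measured receptors that read class I, 0 rose and 1 fell. At an unadjusted p under 0.05 1 was higher, and by the methods' t-test 0 were. Klrd1 (CD94), which pairs with NKG2 receptors to read Qa-1, was at 3.76, 4.70 and 3.94 in LC-HFD and 5.47, 5.06 and 5.01 in LC-RD, a difference of -1.05 (limma adjusted p = 0.0222). That call was lost without any single array except LC-HFD replicate 2 (adjusted p up to 0.0772), with differences of -1.33 to -0.86. Of 10 measured genes for class I transport and turnover 2 rose and 0 fell, with 1 lower at an unadjusted p under 0.05 and 1 by the methods' t-test. Cd74, the invariant chain best known from class II presentation, was at 12.89, 12.89 and 12.93 in LC-HFD and 12.31, 12.25 and 12.25 in LC-RD, a rise of 0.63 (limma adjusted p = 0.00134). Syvn1, a ubiquitin ligase of the endoplasmic reticulum, differed by 0.29 (limma adjusted p = 0.0493), and its call was lost without any single array except LC-RD replicate 3 and after median centering (adjusted p = 0.0516).

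Because class I genes are expressed at different levels by leukocytes, endothelium and epithelium, marker lists were read beside the members, and their counts stand beside the same 11.1% of all genes higher and 16.2% lower. Mean levels of 7 pan-leukocyte markers were 9.94 to 9.99 in LC-HFD and 10.00 to 10.08 in LC-RD, and 1 of 7, Lcp1, an actin-bundling protein of leukocytes, was higher by 0.33 (limma adjusted p = 0.0312), a call lost in 4 of the 6 fits that left out an array. The 7 measured T cell markers averaged 4.51 to 4.90 and 4.69 to 4.76, and 0 passed in either direction (at an unadjusted p under 0.05, 1 was higher and 1 lower, and 0 by the methods' t-test), although 2 were higher without LC-HFD replicate 1. Cd4 was higher without LC-HFD replicate 2 (limma adjusted p = 0.0314), and Cd3g was lower without LC-RD replicate 3 (limma adjusted p = 0.0361). For 6 natural killer cell markers the range was 4.25 to 4.73 against 4.57 to 4.70, and 1 of 6, Klrd1, was lower, with the limit given above. The pan-leukocyte level was thus lower in LC-HFD on every array, and the T cell and natural killer cell ranges overlapped.

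The 9 macrophage markers averaged 9.23 to 9.26 in LC-HFD and 9.10 to 9.14 in LC-RD, with a median difference of 0.08. Of these 2 rose and 0 fell, Marco, a scavenger receptor of alveolar macrophages, by 0.77 (limma adjusted p = 0.00101) and Chil3, a chitinase-like protein of macrophages, by 0.29 (limma adjusted p = 0.0238), the latter lost in 3 of the 6 fits that left out an array. Among them 1 was lower at an unadjusted p under 0.05, and 0 were by the methods' t-test. The 7 endothelial markers averaged 8.05 to 8.16 and 7.85 to 7.93, with a median difference of 0.15, and their passing members went both ways, 3 higher and 2 lower. Tie1, an endothelial receptor kinase, rose by 0.92 (limma adjusted p = 0.00157), Emcn, an endothelial sialomucin, by 0.69 (limma adjusted p = 0.00168) and Pecam1 by 0.37 (limma adjusted p = 0.0185). Tek, the angiopoietin receptor, fell by 0.38 (limma adjusted p = 0.0124), with an adjusted p of 0.0521 without LC-RD replicate 1. Cldn5, a tight junction protein, differed by -0.23 (limma adjusted p = 0.0485), and its call was lost after either scaling and without any single array. The mean levels of the macrophage and endothelial lists were higher in LC-HFD without overlap, although single markers differed in direction, and their part in the members' differences was not tested.

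The 11 lung epithelial markers averaged 11.85 to 11.87 in LC-HFD and 11.82 to 11.86 in LC-RD, and 1 rose, 1 fell and 9 did not pass. Nkx2-1, the lung lineage transcription factor, rose by 1.26 (limma adjusted p = 0.000429), and Scgb3a2, a secretoglobin of the airways, fell by 0.53 (limma adjusted p = 0.00229). Whether the rise of Nkx2-1 and those of the members were linked was not tested. Of the 6 B cell markers, which averaged 5.01 to 5.02 and 4.99 to 5.02, 2 rose and 1 fell. Cd79a, a chain of the B cell receptor complex, rose by 0.96 (limma adjusted p = 0.00156), and Pax5, a B lineage transcription factor, by 0.42 (limma adjusted p = 0.00839), while Ms4a1 (CD20) fell by 0.70 (limma adjusted p = 0.00521).

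The 5 neutrophil markers averaged 6.40 to 6.55 and 6.61 to 6.79, and 0 rose, 2 fell and 3 did not pass. S100a9 and S100a8, which form a calcium-binding complex of neutrophils, fell by 0.92 (limma adjusted p = 0.000439) and by 0.85 (limma adjusted p = 0.00121). Csf3r at 0.33 and Cxcr2 at 0.26 did not pass (limma adjusted p = 0.0867 and 0.184), and neither did Mmp8 at -0.11. At an unadjusted p under 0.05 1 neutrophil marker was higher, and 0 were by the methods' t-test. The 6 dendritic cell markers averaged 4.62 to 4.88 and 4.91 to 5.08, and 1, the transcription factor gene Zbtb46, fell by 0.54 (limma adjusted p = 0.00809). Of the T cell markers 1 of 7, and of the natural killer cell markers 2 of 6, had mean levels under 4, near background.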

How the data were processed

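RNA from 6 mouse lungs was hybridized by the authors, 1 array per mouse, and the authors deposited 1 table of log2 values after GCRMA (version not given in the sources used here), with no pooling. The values were used as deposited, and 0 columns of sample values were left unused. Of 45101 probe sets, 64 controls were set apart and 45037 were tested, with genes named through the platform annotation only where a probe set had exactly 1 gene (34945). Symbols were updated through the Entrez ID. LC-HFD and LC-RD were fitted with limma 3.58.1 (R 4.3.3), two-sided, with Benjamini-Hochberg adjustment over all probe sets tested. The members, lists and tests were chosen with earlier results of these data known. The text names every member and, of each list, up to 3 genes (markers up to 2) with the largest passing difference, besides proteasome counterparts, Irf1, Ifng and Ciita; not every gene of that rule is printed. Alternatives were the methods' t-test, other variance models, array weights, 2 scalings, minimum levels of 4 and 6, a block for replicate number, a covariate for the excess of 3' over 5' signal, testing per gene, the mean over a gene's probe sets, a 2-fold threshold and each array left out. The fit was tested on simulated data. The 6 arrays limit the precision. Limma p-values and intervals combine each probe set's own spread between mice with a spread estimated over all probe sets. For Psmb9, with SDs of 0.00676 in LC-HFD and 0.0232 in LC-RD, the limma SE was 0.0663. Figures were drawn with matplotlib 3.10.9.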

Additional observations from a re-analysis of the deposited data

How the results depend on the processing

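All 10 member differences stayed positive in every alternative, and 0 members fell in any of them. With the excess of 3' over 5' signal as covariate 2 member genes and 4 member probe sets rose, against 6 and 12, and 1566 probe sets were higher and 1992 lower, against 5111 and 6139. With a 2-fold threshold 0 member genes and 0 member probe sets rose, and 302 probe sets were higher and 479 lower. Tested per gene on brightest probe sets, 2444 were higher and 3386 lower. Leaving out each array gave 3 to 6 member genes and 7 to 12 member probe sets, with the lowest counts without LC-RD replicate 1 or 2, and 2518 to 5469 probe sets higher and 3245 to 6062 lower. The causes were not tested. Over the pathway and marker lists, 161 counts of higher or lower genes were equal or similar when an array was left out, 45 smaller and 10 larger. After the 2 scalings 62 were equal or similar, 7 smaller and 3 larger. Counts called similar include small moves in either direction, such as from 3 genes to 2. The methods' t-test gave 7 member genes, trend and robust variances 8, array weights 7, quantile normalization 7, median centering 6, and minimum mean levels of 4 and 6 gave 8 and 9, the latter with 3319 probe sets higher among fewer tested. Replicate numbers did not pair the samples, since deviations of same-numbered arrays correlated at -0.093 to -0.030, and with the replicate block 5 member genes and 10 member probe sets rose. Averaged over all probe sets of a gene, the difference was 0.34 for B2m, 0.18 for Tap1, 0.48 for Tapbp and 0.27 for H2-D1. The ranges of the shared H2 probe sets come from alternatives chosen after seeing the data. With 3 arrays per group, the limma 95% intervals of Psmb9 and H2-D1 included 0, although Psmb9 passed by the methods' t-test (adjusted p = 0.0149).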
